A study of Rattus norvegicus with 19 samples.

Results

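Astrocyte marker genes were followed in the paraventricular nucleus (PVN) and supraoptic nucleus (SON) of normotensive and hypertensive rats. The 10 genes were Gfap, S100b, Aldh1l1, Slc1a2, Slc1a3, Glul, Gja1, Gjb6, Apoe and Clu. All probe sets whose platform annotation gave a single gene symbol from these 10 were taken, which made 19 of 31099 probe sets on the array, and the 10 genes stood among 14217 that had a probe set with a single symbol. Aldh1l1, Gfap, Gjb6 and S100b had 1 probe set each and the other genes had several. The groups were PVN of Wistar Kyoto rats (WKY/NHsd, 5 arrays), PVN of Spontaneously Hypertensive rats (SHR/NHsd, 5 arrays), SON of WKY (5 arrays) and SON of SHR (4 arrays). A further SON SHR array was not analysed here. All rats were untreated inbred males, labelled as 12 weeks of age. Nuclei were cut by hand under a dissecting microscope from hypothalamic slices and pooled, so that neighbouring tissue may have been carried with them. Each value is therefore of a pool, and p-values measure the spread between pools. In such bulk RNA, fewer cells of a type and less RNA per cell cannot be told apart.

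Astrocytes surround the magnocellular neurones of both nuclei, which make vasopressin and oxytocin. They clear glutamate and potassium, feed glutamine back to neurones, share small molecules through gap junctions and withdraw their processes from around neurones when the animal is dehydrated or lactating. GFAP is the intermediate filament protein of the astrocyte skeleton, ALDH1L1 a folate enzyme and S100B a calcium-binding protein. SLC1A2 and SLC1A3 are the main glial glutamate transporters, and glutamine synthetase (Glul) turns the captured glutamate into glutamine. Connexins 43 and 30, the products of Gja1 and Gjb6, form the channels between astrocytes, while apolipoprotein E and clusterin carry lipids outside the cell.

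Signals were scaled to a common median per array and are given on the log2 scale, with a floor at 1.91. Levels of different probe sets are not compared, since brightness differs with the probe as well as with the transcript. A probe set was tested where the mean of at least 1 of the groups compared reached the median of all probe sets, and was called where the Benjamini-Hochberg adjusted p of limma, over all tested probe sets, was under 0.05. Of the 19 probe sets, 14 from 9 genes passed in every comparison. The other 5 were both probe sets of Slc1a2, 2 of Gja1 and 1 of Apoe, and their signals lay between 1.91 and 5.48. Apoe 1371288_at was at the floor on 16 of 19 arrays. As a check of the dissections, corticotropin-releasing hormone (Crh), a peptide of parvocellular PVN neurones, was at 9.14 ± 0.34 in PVN WKY (SD, n = 5) and 5.07 ± 0.16 in SON WKY (n = 5). In SHR it was at 8.74 ± 0.11 (n = 5) and 4.08 ± 0.18 (n = 4). Vasopressin (Avp) had group means of 12.03 to 12.38.

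**Figure D1:**
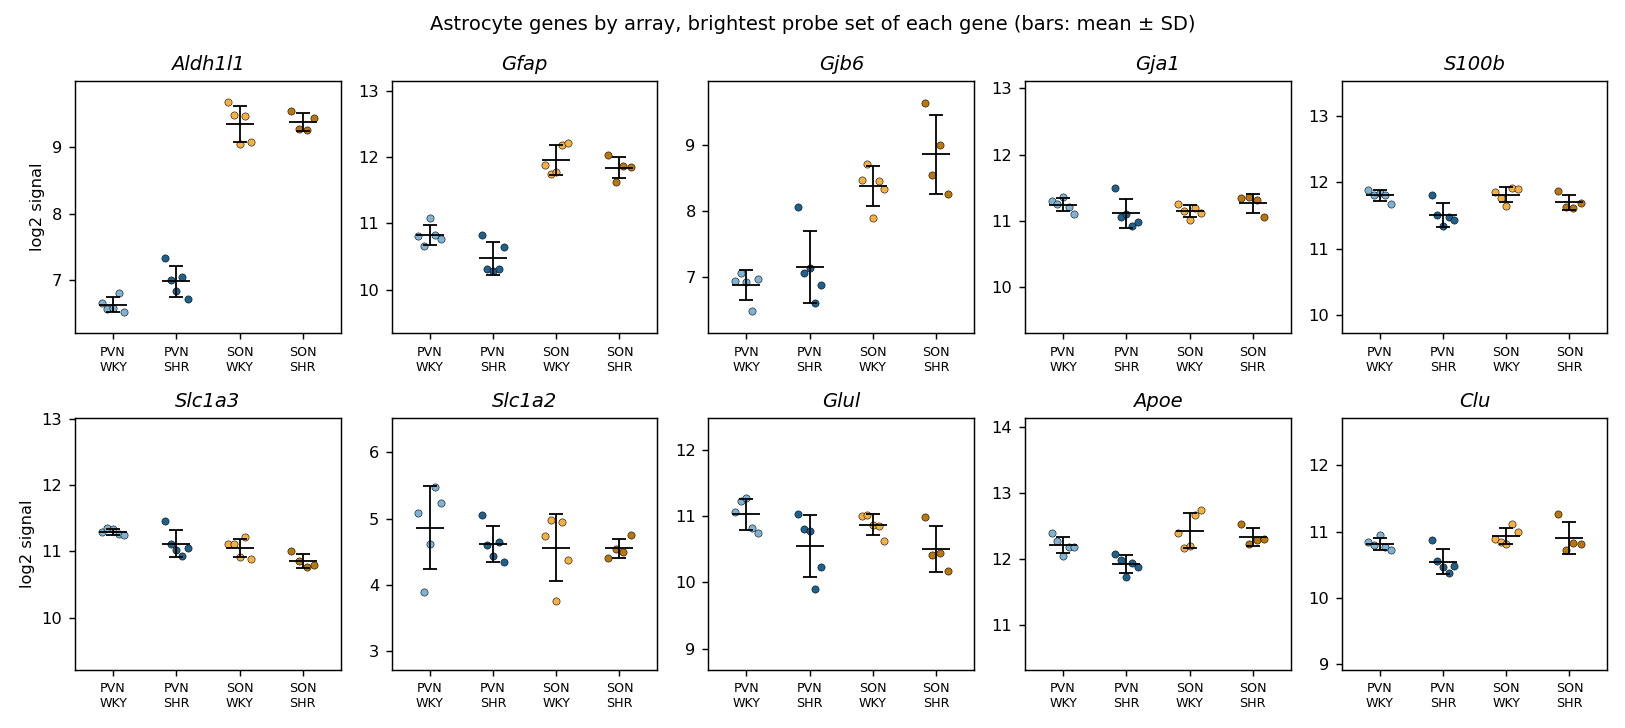
Log2 signal of the brightest probe set of each of the 10 genes on each of the 19 arrays (y axis, with the same span but another origin in each panel) in the 4 groups (x axis). Points are arrays in order of replicate, and bars are mean ± SD (n = 5, or 4 in SON SHR). In each strain Aldh1l1, Gfap and Gjb6 lay higher on every SON array than on every PVN array, and no other gene did so in both strains.

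The comparison of the nuclei set 3 of the 10 genes apart. Aldh1l1, Gfap and Gjb6 were higher in the SON than in the PVN in both strains, by 2.19-fold to 6.63-fold. The stretch of genome before 2 of these genes is shown because they moved together, Gfap from chr10:88361662-88361911 (minus strand) and Aldh1l1 from chr4:124616970-124617181 (plus strand), both taken from RefSeq on the assembly GRCr8 and read 5′ to 3′ towards the gene. The array itself has no coordinates. Capitals mark CCAAT and GGGCGG on either strand (ATTGG and CCGCCC are their complements).
Gfap: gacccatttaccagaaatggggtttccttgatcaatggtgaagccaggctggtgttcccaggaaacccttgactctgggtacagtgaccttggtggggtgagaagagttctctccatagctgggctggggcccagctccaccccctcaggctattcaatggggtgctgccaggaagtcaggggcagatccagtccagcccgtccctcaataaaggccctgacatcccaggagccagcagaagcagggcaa
Aldh1l1: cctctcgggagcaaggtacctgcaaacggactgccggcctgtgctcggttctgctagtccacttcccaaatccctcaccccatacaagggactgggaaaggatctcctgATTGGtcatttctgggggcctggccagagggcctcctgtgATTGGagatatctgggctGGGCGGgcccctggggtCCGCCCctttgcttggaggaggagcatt
The letters CCAAT occurred 2 times and GGGCGG 2 times before Aldh1l1, and neither occurred before Gfap. Over 27457 windows of 250 bases, 1 per gene, 34.3% held CCAAT and 32.4% held GGGCGG. The letters TTGGC, which are part of the site of nuclear factor I and overlap CCAAT where both are read in ATTGGC, were found in 40.3% of windows, and TTCNNNGAA, the palindrome bound by STAT factors, in 7.52%. Neither was found in the windows of Gfap, Aldh1l1 or Gjb6. Of 9 astrocyte genes with a window (Clu had none in the table), 3 held TTGGC (S100b, Slc1a3 and Apoe) and 0 held TTCNNNGAA. In S100b the letters TTGGC lay in the 78 bases of its window that are inside the span of the gene. These matches are a description of letters and say nothing of binding. The listed windows of Gjb6 lay inside the span of the gene and are not printed.

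Aldh1l1 showed the largest difference between nuclei. In PVN WKY its 5 arrays read 6.66, 6.56, 6.57, 6.81 and 6.52, and in SON WKY they read 9.68, 9.49, 9.05, 9.47 and 9.07. In PVN SHR they read 7.32, 7.01, 6.83, 7.04 and 6.71, and in SON SHR 9.55, 9.27, 9.27 and 9.44. Every SON array lay above every PVN array by more than the whole range within either nucleus. The difference was 2.73 ± 0.13 in WKY (SE, adjusted p = 4.45e-12 by limma), or 6.63-fold, and 2.40 ± 0.14 in SHR (adjusted p = 5.81e-11), or 5.28-fold. Ranked by p among 17095 tested probe sets, it stood at 14 in WKY and 38 in SHR. In order of level, SON SHR (mean 9.38) and SON WKY (9.35) differed by less than their SDs, and PVN SHR (6.98) and PVN WKY (6.62) followed. The values of PVN SHR and PVN WKY overlapped and their difference did not pass the test.

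Gfap, the filament gene, followed the same order of nuclei. Its arrays read 10.81, 10.66, 11.08, 10.82 and 10.76 in PVN WKY against 11.87, 11.75, 11.77, 12.18 and 12.21 in SON WKY. In SHR they read 10.83, 10.31, 10.28, 10.31 and 10.64 in the PVN against 12.02, 11.63, 11.86 and 11.85 in the SON. No SON value of either strain fell within the PVN values. The SON was higher by 1.13 ± 0.13 in WKY (SE, adjusted p = 1.31e-06 by limma) and by 1.36 ± 0.14 in SHR (adjusted p = 2.03e-07), which is 2.19-fold and 2.57-fold. The group means ran from SON WKY (11.96) and SON SHR (11.84) to PVN WKY (10.83) and PVN SHR (10.47), and neither pair of strains differed past the threshold.

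Gjb6 (connexin 30) was the third, with more spread between SHR arrays. It read 6.95, 7.06, 6.93, 6.50 and 6.98 in PVN WKY and 8.47, 8.71, 7.89, 8.45 and 8.33 in SON WKY. In SHR it read 8.05, 7.07, 7.14, 6.62 and 6.88 in the PVN and 9.62, 8.54, 8.99 and 8.25 in the SON. Within each strain the nuclei did not overlap, although replicate 1 of PVN SHR (8.05) reached above the lowest SON WKY array (7.89). The SON was higher by 1.49 ± 0.24 in WKY (SE, adjusted p = 0.000113 by limma), or 2.81-fold, and by 1.70 ± 0.26 in SHR (adjusted p = 4.62e-05), or 3.24-fold. Without replicate 1 of SON SHR the difference in SHR was 1.44.

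Connexin 43 (Gja1), which forms channels of the same kind, gave another picture. Gja1 1372002_at read 11.30, 11.26, 11.36, 11.21 and 11.11 in PVN WKY and 11.26, 11.15, 11.01, 11.20 and 11.13 in SON WKY. It read 11.49, 11.06, 11.11, 10.93 and 10.99 in PVN SHR and 11.34, 11.36, 11.31 and 11.06 in SON SHR. All 4 groups overlapped. The difference between nuclei was -0.09 in WKY (95% interval -0.31 to 0.12, adjusted p = 0.536 by limma) and 0.15 in SHR (-0.08 to 0.38, adjusted p = 0.319). With quantile normalization Gja1 passed the test in WKY at -0.22 and was at -0.17 in SHR, so that no direction can be given. The other 2 Gja1 probe sets were too dim to be tested.

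S100b did not pass the test between nuclei either. It read 11.89, 11.81, 11.84, 11.80 and 11.67 in PVN WKY and 11.85, 11.76, 11.65, 11.91 and 11.90 in SON WKY. It read 11.81, 11.51, 11.34, 11.47 and 11.42 in PVN SHR and 11.86, 11.63, 11.62 and 11.68 in SON SHR. The arrays of the 2 nuclei overlapped in each strain. The interval of the difference in WKY was -0.18 to 0.21, and in SHR it was -0.02 to 0.40 (adjusted p = 0.935 and 0.171 by limma). In SHR the value was 0.19. It passed without replicate 1 of PVN SHR (0.26), with the values as deposited (0.21) and with arrayWeights (0.23), and was -0.17 with quantile normalization.

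The 3 probe sets of the glutamate transporter Slc1a3 did not move together. Slc1a3 1388064_a_at read 6.86, 7.28, 7.25, 7.33 and 7.31 in PVN WKY and 7.10, 6.87, 6.11, 6.01 and 6.59 in SON WKY. It read 7.34, 7.69, 7.55, 7.26 and 7.48 in PVN SHR and 6.49, 6.92, 6.80 and 6.09 in SON SHR. The nuclei overlapped slightly in WKY and did not in SHR. The SON was lower by 0.67 ± 0.19 in WKY (difference -0.67, SE, adjusted p = 0.0118 by limma) and by 0.89 ± 0.20 in SHR (difference -0.89, adjusted p = 0.00212). The methods' t-test did not call it in either strain (adjusted p = 0.0942 and 0.0604 by that test).

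The brightest Slc1a3 probe set, 1368565_at, read 11.28, 11.35, 11.33, 11.26 and 11.24 in PVN WKY and 11.10, 11.11, 10.91, 11.22 and 10.89 in SON WKY. In SHR it read 11.46, 11.11, 11.02, 10.92 and 11.05 in the PVN and 11.00, 10.86, 10.76 and 10.80 in the SON. The nuclei did not overlap in WKY but did in SHR. Its differences were -0.25 and -0.26, with adjusted p = 0.0733 in WKY and 0.0718 in SHR by limma. It was negative in all 28 alternatives and was called in 5 of them in WKY and in 4 in SHR. Quantile normalization (-0.37 and -0.53), the values as deposited and arrayWeights called it in both strains. The third probe set, 1371130_at, had differences of 0.06 and 0.34 and was not called (adjusted p = 0.846 and 0.193 by limma). Over the 19 arrays the levels of 1371130_at and 1388064_a_at had r = -0.33, those of 1368565_at and 1388064_a_at r = 0.41, and those of 1368565_at and 1371130_at r = 0.19, given as a description. A suffix of _a_at marks a set that matches several transcripts of a gene. Which transcripts each set reads was not tested.

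Glul was measured by 3 tested probe sets and none was called between the nuclei. Its brightest, 1367632_at, read 11.07, 11.23, 11.27, 10.82 and 10.74 in PVN WKY and 11.00, 11.01, 10.87, 10.86 and 10.63 in SON WKY. In SHR it read 11.03, 10.80, 10.77, 9.90 and 10.24 in the PVN and 10.98, 10.42, 10.45 and 10.17 in the SON. The SHR arrays spread more widely than those of WKY, and all groups overlapped. The differences of the 3 sets were between -0.33 and -0.15 in WKY and between -0.14 and -0.01 in SHR, and the widest interval in WKY was -0.54 to 0.24, that of 1367632_at.

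The lipid carriers differed between the nuclei past the threshold in SHR alone, and the difference between strains in this respect was not past the test of the interaction (adjusted p = 0.876 for Apoe and 0.826 for Clu by limma). Apoe 1370862_at read 12.09, 11.99, 11.72, 11.95 and 11.88 in PVN SHR and 12.54, 12.23, 12.29 and 12.31 in SON SHR, without overlap. It read 12.39, 12.28, 12.06, 12.18 and 12.18 in PVN WKY and 12.39, 12.16, 12.21, 12.66 and 12.74 in SON WKY, with overlap. The SON was higher by 0.41 ± 0.12 in SHR (SE, adjusted p = 0.0148 by limma) and the value in WKY was 0.22 ± 0.12 (adjusted p = 0.176). The call in SHR was lost with quantile normalization, where the value was 0.03, and without replicate 1 of SON SHR, where it was 0.35.

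Clu 1367784_a_at read 10.87, 10.55, 10.47, 10.37 and 10.48 in PVN SHR and 11.26, 10.73, 10.83 and 10.82 in SON SHR. It read 10.85, 10.79, 10.95, 10.76 and 10.73 in PVN WKY and 10.89, 10.85, 10.82, 11.12 and 11.00 in SON WKY. Replicate 1 of PVN SHR lay above 3 of the 4 SON SHR arrays. The SON was higher by 0.36 ± 0.12 in SHR (SE, adjusted p = 0.0253 by limma) and the value in WKY was 0.12 ± 0.11 (adjusted p = 0.460). This call was lost in 7 of 28 alternatives, quantile normalization among them (0.16). The other Clu probe set, 1388246_at, was not called in either strain.

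Together, 4 of 14 probe sets were called between the nuclei in WKY, 3 higher and 1 lower in the SON, where 26.9% of all tested probe sets were called in either direction, 13.2% higher and 13.7% lower. In SHR 6 of 14 were called, 5 higher and 1 lower, against 29.4% of all tested probe sets, 13.7% higher and 15.7% lower. The members called were 28.6% in WKY, close to the share over the array, and 42.9% in SHR. Of the 14, 3 also differed by at least 2-fold in each strain, against 4.91% of probe sets in WKY and 5.65% in SHR. The nuclei did not overlap for 4 of 14 in WKY and 5 of 14 in SHR, against 21.9% and 23% of all tested probe sets. The median difference over the 14 was -0.04 in WKY and 0.17 in SHR, beside -0.01 and -0.02 over all tested. Some genes count more than 1 time in these medians. Over the brightest probe set of each of the 9 tested genes the medians were 0.12 in WKY, with 6 positive, and 0.36 in SHR, with 7 positive.

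**Figure D2:**
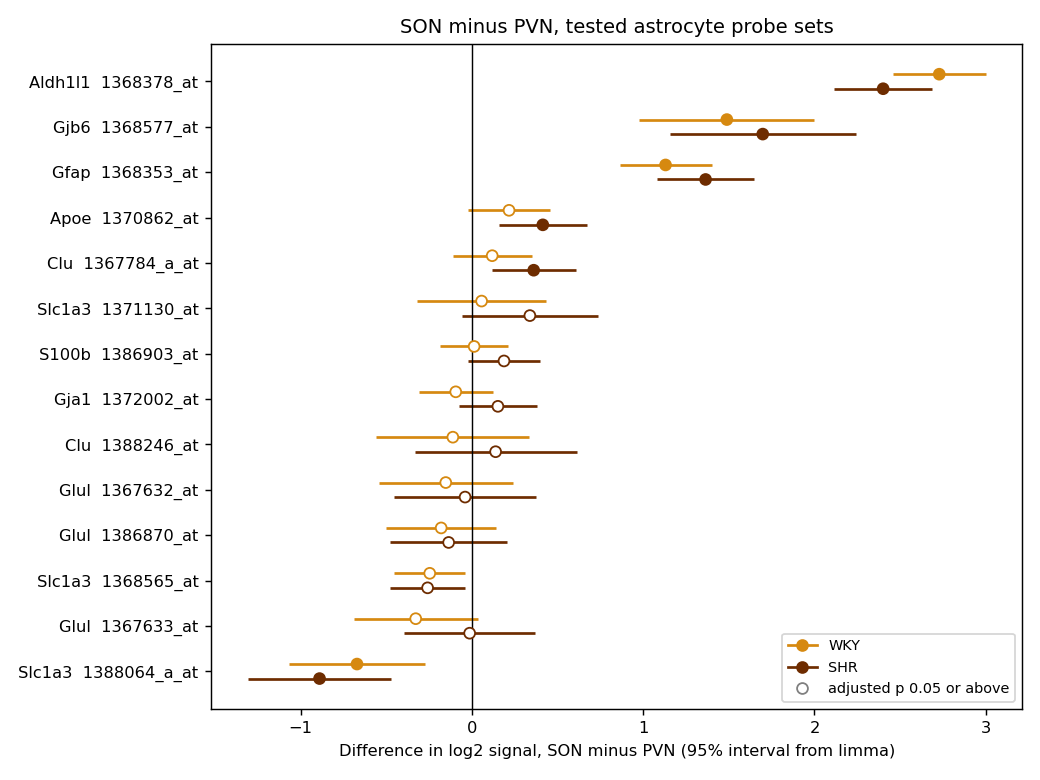
Difference in log2 signal, SON minus PVN (x axis), for the 14 tested astrocyte probe sets (y axis) in WKY and SHR. Points are the limma estimates, lines the 95% intervals, and filled points passed an adjusted p of 0.05. Aldh1l1, Gjb6 and Gfap stand to the right in both strains at 1.13 to 2.73, and Slc1a3 1388064_a_at to the left at -0.67 and -0.89.

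Slc1a2, the other main glial glutamate transporter, could not be read with confidence. Slc1a2 1369693_a_at lay between 3.76 and 5.48 over the 19 arrays and 1369694_at between 3.58 and 4.71. For 1369694_at the means were 4.58 ± 0.15 in PVN WKY (SD, n = 5), 4.38 ± 0.20 in PVN SHR (n = 5), 3.93 ± 0.39 in SON WKY (n = 5) and 3.97 ± 0.26 in SON SHR (n = 4). Its mean was lower in the SON in both strains, and with no filter 1 of the 2 probe sets was called lower in the SON in WKY. The group means of both lay below the median of all probe sets.

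Other cell types differed between the dissections at the same time. Of 11 markers of meninges and fibroblasts, such as the collagens and decorin, 11 were higher in the SON in each strain, with medians of 3.06 in WKY and 3.31 in SHR. Their summed signal was 388 to 481 in PVN WKY, 458 to 497 in PVN SHR, 2481 to 3957 in SON WKY and 3214 to 7912 in SON SHR, and none of them was at the floor on all arrays of a group. Only 3 of these 11 passed the filter in the PVN alone, and the median is over every listed gene. Of 7 tested markers of ciliated ependymal cells, 7 were lower in the SON in each strain, with medians of -3.46 and -3.82. Only 3 of these 7 passed the filter in the SON alone, and over those 3 the medians were -2.49 and -2.48. The ependymal sum was 2520 to 3300 in PVN WKY, 3055 to 3828 in PVN SHR, 269 to 314 in SON WKY and 243 to 304 in SON SHR. Leptomeningeal cells also make connexin 30, and ependymal cells also make S100b, Gja1, Apoe and Clu. The part of these cells in the astrocyte values was not tested. The 4 SON SHR arrays took the same order for Gjb6 (9.62, 8.54, 8.99 and 8.25) as for the mean of the meningeal list (9.06, 8.09, 8.60 and 7.74). This order was not particular to meninges. The mean of the 10 astrocyte genes (10.46, 10.12, 10.19 and 10.11) and that of further astrocyte genes (8.82, 8.54, 8.60 and 8.52) took it too. In SON WKY Gjb6 read 8.47, 8.71, 7.89, 8.45 and 8.33 where the meningeal mean was 7.81, 7.87, 7.35, 7.81 and 7.97. Replicate 3 was lowest for both, as it was for the mean of the 10 astrocyte genes (9.99), and the other arrays did not share an order, replicate 5 being highest for meninges and next to lowest for Gjb6.

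Connexin 26 (Gjb2), which astrocytes and leptomeninges both make, was the connexin outside the 10 genes with the clearest difference. It was higher in the SON by 2.13 in WKY and by 2.84 in SHR (adjusted p = 3.52e-07 and 1.08e-08 by limma). Of 5 connexin and junction genes tested, 1 was called in WKY and 2 in SHR, against 26.9% and 29.4% of tested probe sets. The other was Gja5, which was 0.63 higher and lost its call without replicate 1 of SON SHR. Only 2 of these 5 passed the filter in the PVN. Gjb2 was 1 of them, and Gja5 passed only through its SON signal.

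**Figure D3:**
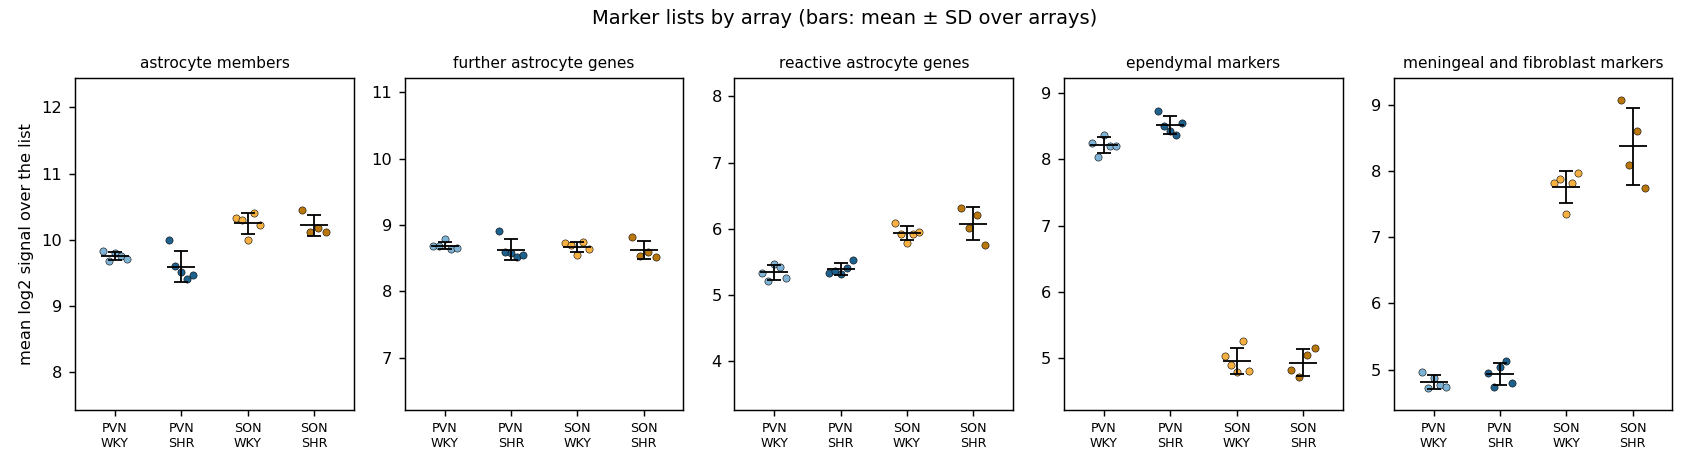
Mean log2 signal over each marker list (y axis, 1 value per array) in the 4 groups (x axis), for the 10 astrocyte genes, further astrocyte genes, genes of reactive astrocytes, and markers of ependyma and of meninges with fibroblasts. Points are arrays and bars are mean ± SD (n = 5, or 4 in SON SHR). The ependymal means lie between 8.04 and 8.72 in the PVN and between 4.72 and 5.26 in the SON, the meningeal means between 4.73 and 5.14 in the PVN and between 7.35 and 9.06 in the SON, and the further astrocyte genes between 8.51 and 8.91 throughout.

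Further astrocyte genes did not follow the 3 that were higher in the SON as a group. Of 30 names 26 were on the array and 24 were tested, and 3 were higher and 4 lower in the SON of WKY, with 4 higher and 4 lower in SHR. Over all tested probe sets 26.9% were called in WKY and 29.4% in SHR, in either direction. The median differences over the 24 genes were -0.04 and -0.01. Those higher in both strains were the water channel Aqp4 (0.58 in WKY and 0.78 in SHR), the fatty acid binding protein Fabp7 (0.75 and 1.02) and the matrix proteoglycan brevican, Bcan (0.53 and 0.63). The transcription factor Nfia was lower in both (-0.50 and -0.61). The other 3 genes lower in WKY were also lower in SHR, at -0.50 to -0.42, and kept those calls in SHR under all 7 settings run. In WKY 2 of these 3 lost their calls without replicate 3 of SON WKY. That array had the lowest mean correlation with its own group (0.929).

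Some genes known from reactive astrocytes were higher in the SON. Of 16 names 15 were on the array and 9 were tested, but 4 of the 9 passed the filter only through their SON signal, so that a count over the 9 is partly set by the filter. Of the 5 that passed in both nuclei 3 were higher and 0 lower in each strain by limma, with medians of 0.62 in WKY and 0.88 in SHR. Over all 15 genes, tested or not, the medians were 0.28 and 0.54. Among the genes called higher was the matrix protein tenascin C, Tnc (2.10 in WKY and 1.78 in SHR). So were the copper protein ceruloplasmin, Cp (1.41 and 1.43), and the protease inhibitor Timp1 (1.37 and 2.05). The filament gene Synm (1.01 and 0.88) and the hyaluronan receptor Cd44 (0.82 and 1.41) were called higher too. Of the 6 genes called higher in each strain, 3 passed in both nuclei, Synm among them. The others passed only through their SON signal. Timp1 is made by meningeal cells and fibroblasts too, and the meningeal sums given above were also higher in the SON. The SON SHR arrays took the same order for the summed signals of both lists. In SON WKY replicate 3 was lowest for both, but the reactive sum was highest on replicate 1 (2406) and the meningeal sum on replicate 5 (3957). The part of meningeal cells and fibroblasts in these values was not tested.

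Genes that handle glutamate and its relatives split. Of 12 tested, 3 were higher and 1 lower in the SON of WKY, and 1 higher and 2 lower in SHR. These counts were near the shares called over all tested probe sets, 26.9% in WKY and 29.4% in SHR. The neutral amino acid carrier Slc38a2 was higher in both (0.53 and 0.92). In WKY asparagine synthetase, Asns (0.42), and the glutamine carrier Slc38a5 (0.34) were higher, and the aminotransferase Got1 (-0.30) was lower. Got1 lost its call without replicate 1 of SON SHR and without replicate 3 of SON WKY. In SHR the glutamine carrier Slc38a3 (-0.59) and the vesicular glutamate transporter of neurones Slc17a6 (-0.37) were lower.

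Genes of lipid carriage included the enzyme that acts with apolipoprotein E on lipoproteins. Of 13 tested, 4 were higher and 4 lower in the SON of WKY, and 3 higher and 3 lower in SHR. Over all tested probe sets 26.9% were called in WKY and 29.4% in SHR, in either direction. Lcat, which esterifies cholesterol, was higher by 2.47 and 2.38. The carrier Apod (0.41 and 1.18) and the lipid transporter Abca7 (0.56 and 0.69) were higher in both strains. The lipoprotein receptors Sorl1 (-0.61 and -0.59) and Vldlr (-0.41 and -0.45) were lower in both, and lipoprotein lipase, Lpl, was lower in WKY (-1.58).

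The strains were next compared within each nucleus. In the PVN 0 of 14 astrocyte probe sets were called by limma, where 2.36% of all tested probe sets were, and 9 of 14 had an unadjusted p under 0.05. The methods' t-test also called 0 of 14, with 7 under 0.05 before adjustment. The difference, SHR minus WKY, was negative for 11 of 14 and ran from -0.48 to 0.36, with a median of -0.29 beside -0.04 over all tested probe sets. The 24 further astrocyte genes tested had a median of -0.09, and 5 genes of reactive astrocytes 0.09. Some markers of other cells had lower medians, at -0.25 for 5 magnocellular genes, -0.24 for 12 oligodendrocyte genes and -0.18 for 15 neurone markers. Others were at -0.14 (2 tanycyte genes), -0.13 (8 genes of microglia and macrophages) and -0.005 (8 endothelial genes). Meningeal markers (3 tested) were at 0.17 and 7 ependymal markers at 0.28. The part of these other cells in the astrocyte values was not tested. The strains overlapped for all 14, where 4.37% of all tested probe sets did not overlap.

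Among the lower signals in SHR were those of Glul 1367632_at, at -0.48 (95% interval -0.88 to -0.08, adjusted p = 0.269 by limma), and of Slc1a3 1371130_at, at -0.39 (-0.63 to -0.15, adjusted p = 0.0942). All 3 Glul probe sets were negative, at -0.48, -0.38 and -0.34. Gfap was at -0.35 (-0.63 to -0.08, adjusted p = 0.218), S100b at -0.29 (-0.52 to -0.06), Apoe 1370862_at at -0.29 (-0.52 to -0.06) and Clu 1367784_a_at at -0.27 (-0.50 to -0.03). Slc1a3 1368565_at was at -0.18 and Gja1 1372002_at at -0.13, with intervals that held 0. Positive values were those of Aldh1l1, at 0.36 (0.10 to 0.62, adjusted p = 0.177), Gjb6, at 0.27 (-0.17 to 0.71), and Slc1a3 1388064_a_at, at 0.26 (-0.0027 to 0.52). None of them passed the threshold.

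How these small differences came out depended on 1 array and on the scaling. Replicate 1 of PVN SHR was the highest of its 5 for 9 of the 9 brightest probe sets of tested genes, and it had the lowest deposited median signal of all 19 arrays (35.9, against a highest of 46.5). Without it Gfap (-0.44), S100b (-0.37) and Clu 1367784_a_at (-0.35) were called lower in SHR, which made 3 of 14 where 4.56% of all tested probe sets were called. With quantile normalization the median over the 14 moved to -0.05, 0 were called, and Apoe 1370862_at, Gja1 1372002_at and Slc1a3 1368565_at changed sign (0.05, 0.14 and 0.07). With the values as deposited Aldh1l1 was called higher in SHR, at 0.40, where 3.77% of all were called.

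**Figure D4:**
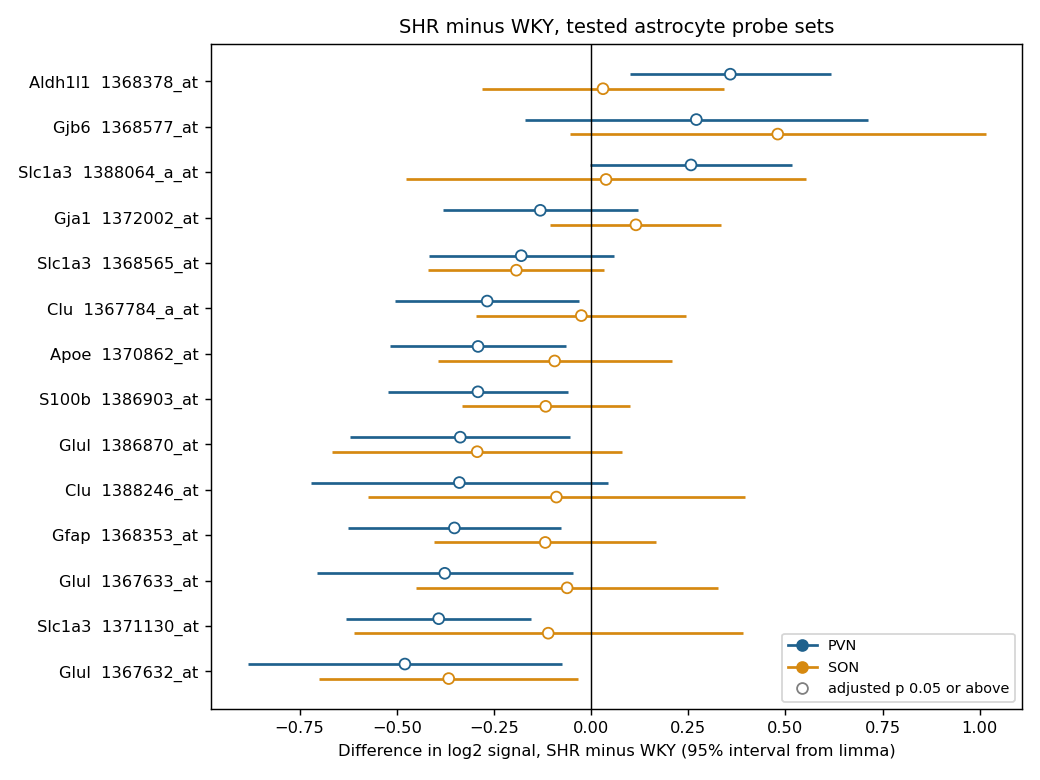
Difference in log2 signal, SHR minus WKY (x axis), for the 14 tested astrocyte probe sets (y axis) in the PVN and the SON. Points are the limma estimates and lines the 95% intervals, and all points are open because none passed an adjusted p of 0.05. In the PVN 11 of 14 lie left of 0, and in the SON 10 of 14 do.

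In the SON 0 of 14 probe sets were called between the strains by limma, where 3.62% of all tested were, and 1 of 14 had an unadjusted p under 0.05. By the methods' t-test 0 of 14 had an unadjusted p under 0.05. The median difference was -0.09 beside -0.04 over all tested, and 10 of 14 were negative. The strains overlapped for all 14, where 9.83% of all tested probe sets did not overlap. Glul 1367632_at was again lower in mean, at -0.37 (95% interval -0.70 to -0.03, adjusted p = 0.212 by limma). Gjb6 had the highest value, 0.48 (-0.05 to 1.02, adjusted p = 0.308 by limma). This value was 0.22 without replicate 1 of SON SHR and 0.68 without replicate 4 of SON SHR. Replicate 1 had the highest meningeal sum and also the highest mean of the 10 astrocyte genes (10.46). Gfap (-0.12, -0.40 to 0.17) and Aldh1l1 (0.03, -0.28 to 0.34), which differed so much between nuclei, were not called here.

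The test of whether the strain difference itself depended on the nucleus called 0 of 14 by limma, where 0.0819% of all tested probe sets were called, and 0 of 14 had an unadjusted p under 0.05. No other test was run on it. The value, which takes the strain difference of the PVN away from that of the SON, ran from -0.33 (Aldh1l1, 95% interval -0.72 to 0.07) to 0.31 (Glul 1367633_at, -0.21 to 0.84). The intervals of Gjb6 (-0.54 to 0.95) and of Glul 1367632_at (-0.46 to 0.68) were wide, so that differences of such a size could not be detected with these arrays.

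In the other lists calls between the strains were scattered. Of 7 ependymal markers in the PVN, the cilia genes Tekt1 (0.47, adjusted p = 0.0442 by limma) and Ak7 (0.48, adjusted p = 0.0457) were higher in SHR, and 0 of 7 were called without replicate 4 of PVN SHR. Of the 24 further astrocyte genes tested in the PVN, the transcription factor Nfib was higher in SHR (0.42, adjusted p = 0.0374 by limma) and the protease inhibitor cystatin C, Cst3, lower (-0.51, adjusted p = 0.0123). Cst3 was not called with quantile normalization (-0.17), and Nfib was not called without replicate 4 of PVN SHR. In the SON 0 of 24 were called by limma. Timp1 was higher in SHR in the SON (0.71, adjusted p = 0.0196), as 1 of 9 genes of reactive astrocytes tested there, beside 3 of 11 meningeal markers (Dcn, Lum and Crabp2, at 1.00 to 1.04). Without replicate 1 of SON SHR, Timp1 lost its call and 1 of 11 meningeal markers was called. The neutral amino acid transporter Slc1a4 was lower in the SHR SON (-0.43), and Apod (0.51) and Lpl (1.18) were higher there. Slc1a4 and Apod lost their calls without the same array.

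The astrocyte genes were not tied equally to each other. Over the 19 arrays the levels of Gfap and Aldh1l1 had r = 0.91, Aldh1l1 and Gjb6 r = 0.90, and Gfap and Gjb6 r = 0.84, which largely restates that all 3 differed between nuclei. Within groups, as deviations from the group mean, Gfap followed Clu (r = 0.78) and S100b (0.71) more than Aldh1l1 (0.17). The genes whose levels over 19 arrays were most like the mean of the 10 astrocyte genes, of 12984 genes compared, were Cd81 (r = 0.92), Tpi1 (0.91), Fdx2 (0.91), Atp5f1d (0.91) and Rpn1 (0.90). For deviations from group means they were B2m (0.95), Hexa (0.95), Atp5f1a (0.94), Ndufv1 (0.93) and Ccs (0.93). The arrays share their scaling and their pools, whose part in these correlations was not tested, and the values are descriptions only.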

How the data were processed

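RNA of pooled nuclei was amplified and hybridised to Affymetrix rat arrays. The deposited values are intensities on a linear scale, which the authors made with MAS5 per their processing notes. Their later normalisation and present calls were not used. Each array was scaled to a common median, values under the 10th percentile (signal 3.75) were set to it, and log2 was taken. The number of arrays limits the precision. Symbols came from the platform annotation, updated through RefSeq, and in a list the brightest probe set stood for a gene. Strain comparisons were fitted on the groups of 1 nucleus, nucleus comparisons and the interaction on all 4 groups, with limma 3.58.1 in R 4.3.3 (lmFit, eBayes) and Benjamini-Hochberg adjustment. Scripts were tested on simulated data. Members and lists were chosen with earlier results of these data known. Named were the 10 members, the 5 genes most like them by each measure and, from other lists, at most 4 called genes per comparison, those with the smallest adjusted p. Alternatives are given in the closing section.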

Additional observations from a re-analysis of the deposited data

Results flagged for a closer look

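Among 72 groups of astrocyte probe-set values, 5 held an array that stood apart from the rest of its group by Dixon's criterion, and chance alone gives about 1 in 20. Gjb6 was lowest on replicate 4 of PVN WKY at 6.4956, with the next array at 6.93. Slc1a3 1388064_a_at was lowest on replicate 1 of PVN WKY at 6.8586, with the next at 7.25. Gja1 1372002_at was lowest on replicate 4 of SON SHR at 11.0568, with the next at 11.31. The remaining 2 were dim probe sets that were not tested, Gja1 1369640_at on replicate 5 of SON WKY at 2.0306 (next 4.07) and Slc1a2 1369694_at on replicate 2 of PVN WKY at 4.3328 (next 4.61). No astrocyte probe set differed between the nuclei in its strain difference by the interaction test.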

How the results depend on the processing

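The higher SON signals of Aldh1l1, Gfap and Gjb6 were called under the main settings and under every alternative run, in both strains. Aldh1l1 ranged from 2.55 to 2.83 in WKY and from 2.26 to 2.49 in SHR, Gfap from 0.96 to 1.19 and from 1.12 to 1.46, and Gjb6 from 1.37 to 1.65 and from 1.44 to 1.92. The number of astrocyte probe sets called between the nuclei was 4 to 5 in WKY and 4 to 8 in SHR when arrays were left out in turn, with 6 and 5 under quantile normalization and 3 and 4 by the methods' t-test. For the strain difference in the PVN the number called was 0 under the main settings, 1 with the values as deposited, 3 with arrayWeights (Apoe, Gfap and S100b, all lower in SHR, where 5.59% of all probe sets were called) and 0 to 3 when arrays were left out, the 3 without replicate 1 of PVN SHR. The cause was not tested. In the SON and for the interaction it was 0 under every alternative run. Among single probe sets, 22 values passed the threshold that had not, 11 fell short of it, and 68 that were not called changed sign. Correlations of same-numbered arrays were low, between -0.23 and 0.17. The same-numbered array was the best match for 3 of 4 between PVN SHR and SON SHR (0.04 to 0.17). It was for 3 of 4 between SON WKY and SON SHR (-0.01 to 0.10). It was for 0 of 5 between PVN WKY and PVN SHR, and for 0 of 5 between PVN WKY and SON WKY. Whether the replicate numbers pair the arrays is not settled by these values. With the replicate block the counts were 0 and 0 between strains, 4 and 6 between nuclei and 0 for the interaction, and no count changed. Probe sets at low signal, among them both of Slc1a2, were too dim to test.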

Other observations

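Other cell types on the same arrays moved less than meninges and ependyma. Of 9 endothelial genes tested, 6 were higher and 1 lower in the SON of WKY and 3 higher and 1 lower in SHR, with median differences of 0.51 and 0.31. Of 12 oligodendrocyte genes, 1 was higher and 1 lower in WKY, and 6 were higher and 0 lower in SHR by limma, with medians of -0.02 and 0.48. Of 15 neurone markers 2 were higher and 2 lower in WKY and 1 higher and 3 lower in SHR, and of 5 magnocellular genes 2 were higher and 1 lower in WKY and 1 higher and 1 lower in SHR. Of 9 genes of microglia and macrophages, 1 was higher and 2 lower in WKY and 2 higher and 2 lower in SHR. Of 3 tanycyte genes tested 0 were called in WKY by limma and 1 was higher in SHR. Over all tested probe sets 26.9% were called between the nuclei in WKY and 29.4% in SHR. Between strains at most 1 gene of each of these lists was called in either nucleus.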
